A study of Mus musculus with 15 samples.

Results

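Cytosolic ribosomal protein genes were followed in the mouse heart after aldosterone. Members were the genes whose symbol has the Rpl or Rps form, with Rplp0 to Rplp2 and Rpsa and without Rps6 kinases and pseudogenes, and which had a probe set annotated with that symbol alone. These were 46 of the 18193 genes with such a probe set, each read from its brightest one. The array held 74 symbols of this form. Those read only by probe sets with several symbols, Rpl3 and Rpl10 among them, were not members. Of the 46, 43 had a mean signal above the median of all probe sets and were tested, and Rpl14, Rpl39l and Rps16 lay below it. Hearts had been taken whole, frozen, and their total RNA was measured on Affymetrix mouse arrays. The aldosterone group had 1 array at each of 0.5, 1, 2, 3, 4, 5 and 12 h, the control group had 1 array at each of the same times, and 1 further control array at 0 h had received no injection. The labels name no strain, age, dose or vehicle, and do not say what the timed controls received or whether an array holds 1 animal or a pool. P-values therefore measure only how arrays differ, part of which may be technical, and the 7 times stand in for replicates of each group.

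Each cytosolic ribosome joins a small subunit, which reads the message, with a large subunit, which forms the peptide bond. Their proteins are made in near equal amounts, and in vertebrates the messages begin with a tract of pyrimidines that lets mTOR signalling control their translation. Transcript levels of these genes are often steady, and several of them serve as reference genes. Heart muscle also has its own large-subunit variant, Rpl3l, which replaces Rpl3 in part of the ribosomes of striated muscle.

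Promoter sequence was available from RefSeq for 40 of the 46 genes, as 250 bases before and 50 bases after each annotated start on build GRCm38.p6. Altogether 4 motifs were searched, none of which contains another. CTTTC, the core of a pyrimidine tract, was looked for on the forward strand within 20 bases either side of the start, and stood there in 12 of 40 ribosomal protein genes (30.0%) and in 1741 of 27025 genes (6.4%). CGGAAG, the core bound by ETS factors, stood on either strand of the whole window in 29 of 40 ribosomal protein genes (72.5%), against 18.8% of all genes. GCCATNTT, a form of the YY1 motif, stood on either strand in 12.5% of the ribosomal protein genes and 7.0% of all genes. TATAAA stood on either strand in 12.5% of the ribosomal protein genes and 15.7% of all genes. The 5 windows below run from 60 bases before the annotated start to 20 bases after it, and belong to the genes with the smallest p in at least 1 comparison each. Capitals mark CTTTC near the start and CGGAAG or its reverse complement. The Rps27l window is chr9:66946026-66946105, forward strand, that of Rps6 is chr4:86857348-86857427, reverse strand, and that of Rpl39 is chrX:37085203-37085282, reverse strand. The Rps26 window is chr10:128626487-128626566, reverse strand, and that of Rps15 is chr10:80292371-80292450, forward strand.
Rps27l: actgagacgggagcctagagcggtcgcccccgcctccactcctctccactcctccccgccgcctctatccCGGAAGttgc
Rps6: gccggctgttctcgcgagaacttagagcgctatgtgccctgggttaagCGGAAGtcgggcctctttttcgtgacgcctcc
Rpl39: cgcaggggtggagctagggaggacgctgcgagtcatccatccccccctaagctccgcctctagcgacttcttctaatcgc
Rps26: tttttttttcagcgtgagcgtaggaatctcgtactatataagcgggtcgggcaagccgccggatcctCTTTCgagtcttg
Rps15: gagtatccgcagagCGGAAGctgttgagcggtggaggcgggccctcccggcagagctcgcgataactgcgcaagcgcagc
Rps26 carries CTTTC just after the start, Rps27l carries CGGAAG just after it, Rps6 and Rps15 carry CGGAAG before it, and the Rpl39 window holds neither. The Rps27l window lies inside its annotated gene, which begins at chr9:66944624, so the start used there is not the first base of the gene. A match is only a match of letters, and no factor was measured at these promoters.

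Signals are given below as log2 of the deposited signal plus 167.8, after quantile normalization, so they are relative to the other probe sets of the same array. The check of the tissue rested on cardiomyocyte markers such as Myh6, Actc1 and Tnnt2, whose mean log2 signal lay between 17.77 and 17.84 on the 15 arrays. Quantile normalization holds the brightest probe sets near the same values, so this narrow range cannot show equal cardiomyocyte content. Their summed deposited signal ran from 1795675 (aldosterone, 3 h) to 2974873.5 (control, 12 h). Lung markers, among them the surfactant genes, averaged 14.19 on the aldosterone array and 13.23 on the control array at 1 h, and at most 9.79 on every other array. Atrial markers ran from 12.00 (control, 0.5 h) to 15.82 (uninjected), fat markers from 8.75 (aldosterone, 5 h) to 11.78 (control, 2 h) and neutrophil markers from 8.92 (uninjected) to 11.64 (aldosterone, 1 h). The experiment files named 3 scan days, with the 0.5 and 3 h pairs on day 1, the 1, 4 and 12 h pairs on day 2, and the 2 and 5 h pairs with the uninjected array on day 3. All day 1 arrays were of chip lot 1 and all others of lot 2. Both arrays of a pair shared a station except at 5 h, with control on station 2 and aldosterone on station 1. Gapdh has probe sets at both ends of its message, and the log2 ratio of their signals (3′ over 5′) passed 2 on 6 arrays, namely aldosterone at 1, 2, 4 and 12 h and control at 4 and 12 h. On the other 9 arrays it lay between -0.23 and 1.28. The same ratio for actin differed less and did not part the arrays cleanly. It lay between 0.05 and 0.62 on the 6 arrays and between -0.32 and 0.14 on the other 9. In whole hearts, fewer cells of a type and less RNA per cell cannot be told apart.

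After quantile normalization the ribosomal protein genes gave bright and steady signals. Of the 43 tested genes, 36 had a mean log2 signal above 13 and 7 lay under it, namely Rpl12, Rps25, Rpl27a, Rps6, Rps27, Rps4l and Rpl39. Of these 7 dim probe sets, 6 had a partner annotated with several symbols, often a pseudogene copy, which could not be assigned to 1 gene. The median gene spanned a 1.41-fold range over the 15 arrays, with a median SD of 0.144 on the log2 scale, against 0.320 for all 22520 tested probe sets. Among the 36 bright members the median SD was 0.132, against 0.165 for the 1495 probe sets of all genes that were at least as bright as the dimmest of them. The 2 smallest ranges were those of Rps24, a small-subunit protein mutated in human Diamond-Blackfan anaemia (1.19-fold), and Rpl7a, a large-subunit protein (1.19-fold), followed by Rps2 (1.22-fold) and Rpl38 (1.23-fold). The widest were those of Rpl27a (6.27-fold), Rps27 (5.57-fold), Rps14 (2.50-fold) and Rps6 (2.44-fold).

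**Figure D1:**
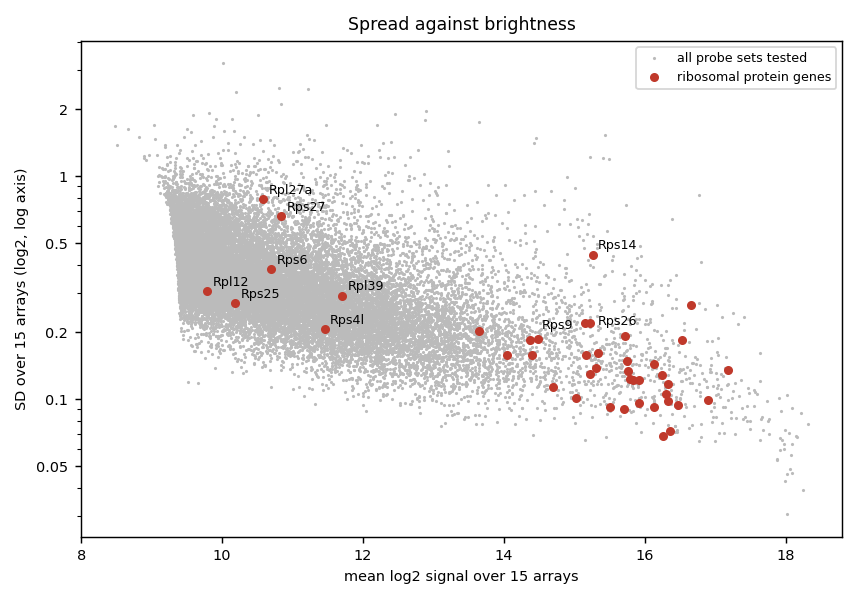
SD over the 15 arrays (vertical, log2 units, log axis) against the mean log2 signal (horizontal) for all 22520 tested probe sets (grey) and the 43 ribosomal protein genes (red). Most red points lie at means above 13 with an SD below 0.3, and Rps14 stands above the other bright members at 0.444.

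The genes also moved together only in part. The level of each member was correlated with the mean of the other members over the 15 arrays. Members on an array share its normalization and RNA quality, so the values are descriptive. The highest correlations were those of Rpl37 (r = 0.83), Rpl35 (r = 0.74), Rpl19 (r = 0.70) and Rpl13a (r = 0.69), all large-subunit genes. The lowest were those of Rps14 (r = -0.58), Rps27 (r = -0.54), Rps9 (r = -0.42) and Rpl39 (r = -0.35).

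**Figure D2:**
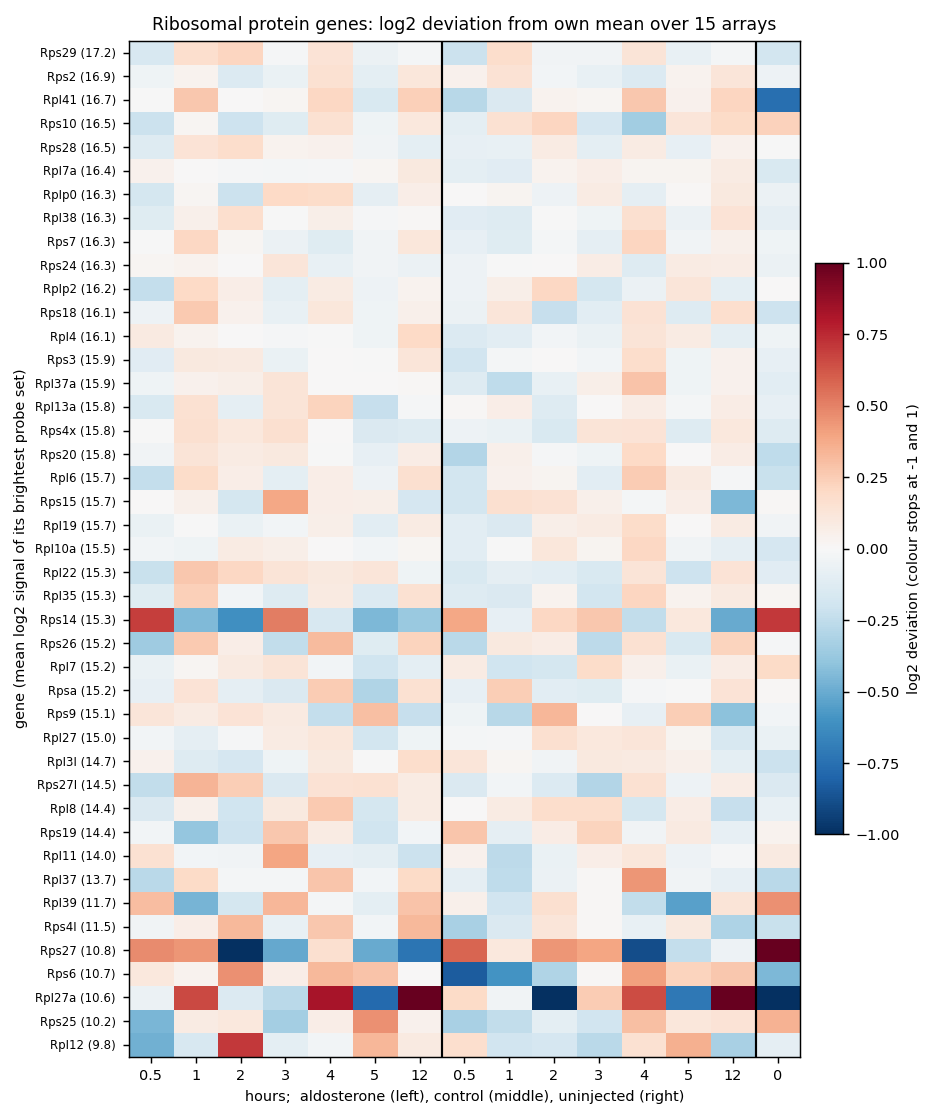
Log2 deviation of each gene from its own mean over 15 arrays (colour), with genes down the page in order of mean log2 signal and arrays across, aldosterone left, control in the middle and the uninjected array at the right. Most rows are pale, while Rps14 and the dim genes at the bottom, Rps27 and Rpl27a among them, carry the strong colours.

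The first question was whether aldosterone changed the level of these genes. No tested ribosomal protein gene was called as different between aldosterone and control hearts over the 7 times, and neither was any other probe set. By limma, 0 of 43 genes were called at an adjusted p under 0.05, where 0% of the 22520 probe sets were called, and 0 of 43 had an unadjusted p under 0.05, against 4.44% of all probe sets. The mean log2 signal of the 43 genes was 14.86 ± 0.06 in aldosterone hearts and 14.83 ± 0.05 in control hearts (SD, n = 7 each). It ran between 14.78 and 14.94 in aldosterone hearts and between 14.78 and 14.92 in control hearts, so the arms overlapped almost fully. The median gene was higher in aldosterone hearts by 0.03 on the log2 scale, with 26 of 43 genes on that side, against 51.6% of all probe sets with a median of 0.01. This lean was larger on the deposited scaling and was lost without 1 pair. On the deposited scaling 38 of 43 genes were higher (47.7% of all probe sets), the median member was 0.07 and 2 members had an unadjusted p under 0.05 (5.04% of all), with 0 called. Without the 1 h pair 20 of 43 were higher (52.0% of all) and the median member was -0.003, a change of sign.

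The precision was enough to bound these differences for most members. For 40 of the 43 genes the 95% interval of the aldosterone-minus-control difference stayed within 1.5-fold either way, and for all 43 within 2-fold. Of all tested probe sets, 75.3% stayed within 1.5-fold and 96.9% within 2-fold. The bounds were weaker within a window. At 0.5 to 2 h, 37 of 43 genes stayed within 1.5-fold (37.5% of all) and 40 within 2-fold (81.9% of all). At 3 to 5 h, 39 stayed within 1.5-fold (46.5% of all) and 43 within 2-fold (85.8% of all). The intervals of Rps24, Rpl7a and Rpl10a reached least far, to 1.08-fold, 1.09-fold and 1.09-fold. The stalk of the large subunit, where elongation factors dock, was read by Rplp0, with a difference of -0.01 ± 0.06 (SE), and Rplp2, with 0.00 ± 0.06. Rpsa, a small-subunit protein also known as a laminin receptor, differed by -0.02 ± 0.07. Rpl11, which binds Mdm2 when ribosome assembly is disturbed, differed by 0.04 ± 0.08.

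**Figure D3:**
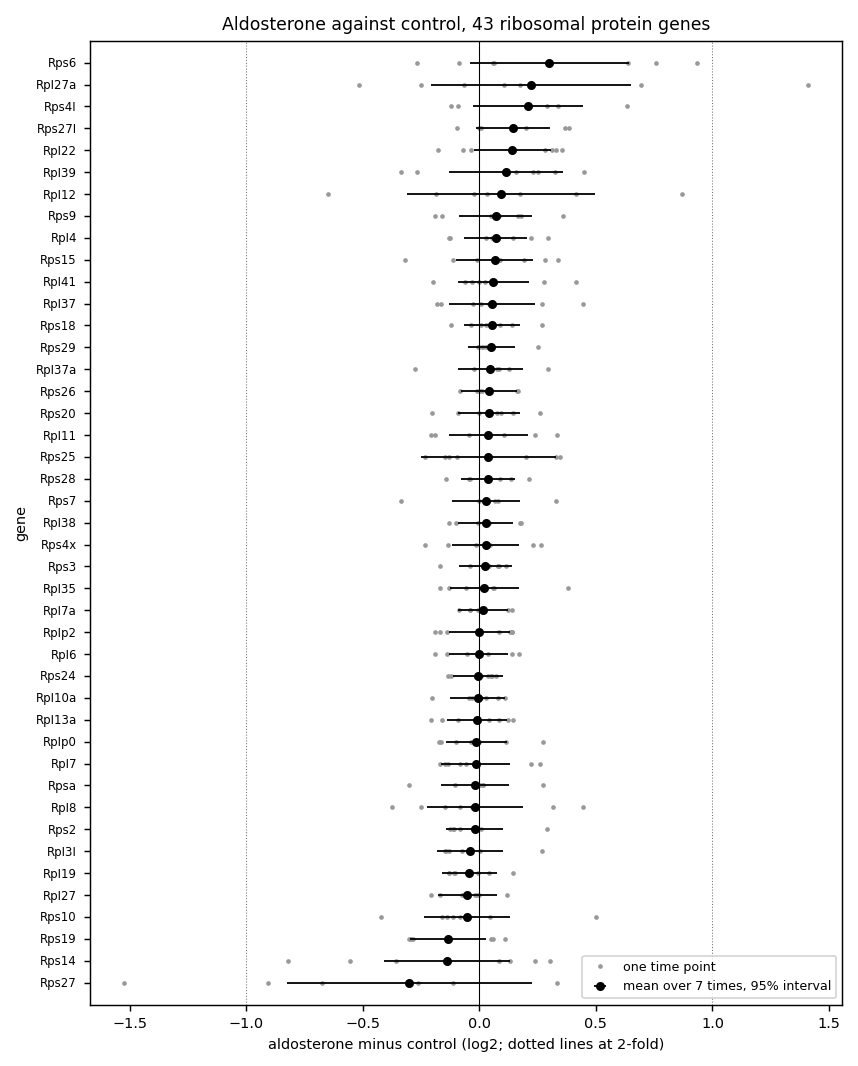
Aldosterone-minus-control difference (log2, horizontal) for each of the 43 genes, with the mean over 7 times and its 95% interval (black) and the difference at each single time (grey). Every black interval crosses 0 and stays inside the dotted lines at 2-fold, and grey points past those lines belong to Rps27 and Rpl27a.

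The genes with the smallest p over the 7 times were Rps27l, Rps4l, Rps6, Rpl22 and Rps19, each at an adjusted p of 0.973 by limma. Rps27l, a paralog of Rps27 that p53 induces, averaged 14.56 ± 0.21 in aldosterone hearts and 14.42 ± 0.15 in control hearts (SD, n = 7 each) and was higher at 5 of 7 times. Its other 2 probe sets gave differences of 0.09 and 0.10, against 0.14 for the brightest. Rps4l, a paralog of the X-linked Rps4x, averaged 11.58 ± 0.18 in aldosterone hearts and 11.37 ± 0.18 in control hearts, and Rps4x itself differed by 0.03 ± 0.07 (SE). Rpl22, a large-subunit protein needed for T-cell development in mice, averaged 15.42 ± 0.16 in aldosterone hearts and 15.28 ± 0.14 in control hearts, while its other 2 probe sets both differed by 0.01. Rps19, a small-subunit protein often mutated in Diamond-Blackfan anaemia, averaged 14.30 ± 0.22 in aldosterone hearts and 14.43 ± 0.15 in control hearts. Rpl3l, the striated-muscle variant, averaged 14.69 ± 0.12 in aldosterone hearts and 14.73 ± 0.08 in control hearts. Rpl3 was read only by probe sets with several symbols, of which the brighter differed by 0.08 ± 0.08 (SE).

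At single times the arms stood closest together at 0.5 h and furthest apart at 1 h. The mean of the 43 genes at 1 h was 14.92 in the aldosterone heart and 14.79 in the control heart, with 30 of 43 genes higher under aldosterone, against 51.5% of all probe sets. At 5 h it was 14.78 in the aldosterone heart and 14.83 in the control heart, with 15 genes higher and 27 lower under aldosterone, where 51.5% of all probe sets were higher. At 1 h the Gapdh ratio was 3.31 on the aldosterone array and 0.78 on the control array. The lung markers there were 14.19 on the aldosterone array and 13.23 on the control array, and the neutrophil markers 11.64 on the aldosterone array and 10.88 on the control array. Their part in the gap at 1 h was not tested. Over all arrays, 31 of the 43 genes had a higher mean on the 6 arrays with a ratio above 2 than on the other 9, by a median of 0.11 on the log2 scale, against 56.9% of all probe sets with a median of 0.05. With the ratio as a covariate, 0 of 43 genes were called for aldosterone. Each single time has 1 array an arm, so these differences have no test. The arrays of the 5 h pair also differed in station.

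**Figure D4:**
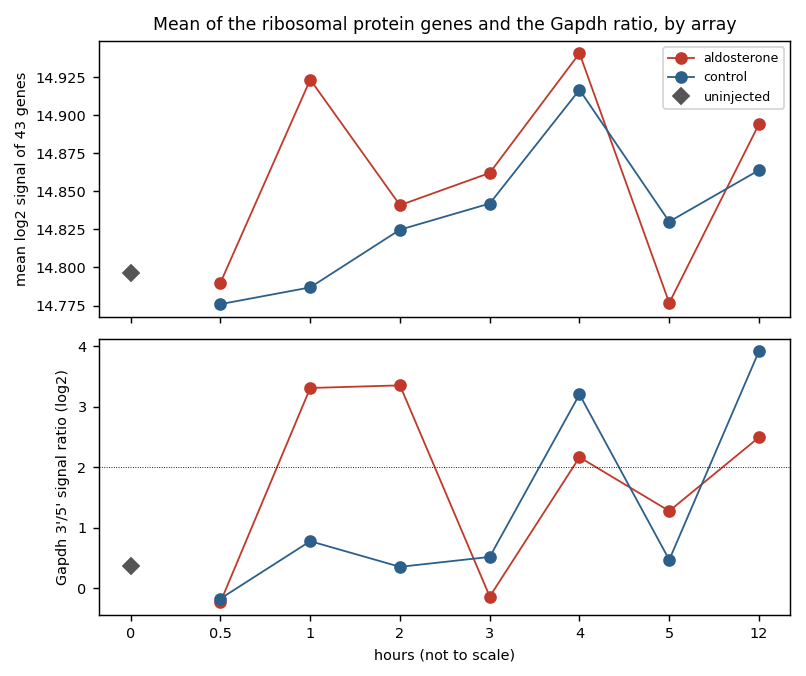
Mean log2 signal of the 43 ribosomal protein genes (top) and the log2 ratio of the Gapdh 3′ and 5′ signals (bottom) on each array, by hours, for aldosterone (red), control (blue) and the uninjected array (grey). The upper axis spans under 0.2, the arms part most at 1 h (14.92 for aldosterone, 14.79 for control), and the dotted line marks a ratio of 2.

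Splitting the times gave no call either. At 0.5 to 2 h, 0 of 43 genes were called by limma (0% of all probe sets), and 4 had an unadjusted p under 0.05, against 10.2% of all probe sets. In this window 29 of 43 were higher in aldosterone hearts (53.2% of all), with a median of 0.09 on the log2 scale (0.02 for all). When probe sets with several symbols were taken in, 58 of 73 were higher and 11 had an unadjusted p under 0.05. With the Gapdh ratio as a covariate 27 of 43 were higher (50.2% of all) and the median was 0.03. At 3 to 5 h, 0 were called (0% of all) and 0 had an unadjusted p under 0.05 (3.34% of all). For the later window minus the earlier one, 0 were called (0% of all) and 2 had an unadjusted p under 0.05 (6.71% of all).

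Rps6 led the early window. It encodes the small-subunit protein that S6 kinases phosphorylate when mTOR is active. At 0.5, 1 and 2 h its log2 signal was 10.80, 10.73 and 11.15 in aldosterone hearts, against 9.87, 10.10 and 10.39 in control hearts. The arms did not overlap in this window, but Rps6 was picked by its p there, so this is descriptive. The share of all probe sets without overlap is not given here. The difference for Rps6 was 0.78 ± 0.16 (SE), higher at 3 of 3 times, and its adjusted p was 0.427. At 3, 4 and 5 h the signal was 10.76, 11.02 and 10.98 in aldosterone hearts, against 10.71, 11.11 and 10.92 in control hearts, and here the arms overlapped. The later-minus-earlier change of the difference was -0.77 ± 0.23 (SE; adjusted p = 0.738). This probe set is one of the dim ones. The brightest probe set for Rps6, which also carries the symbol of a pseudogene, differed by 0.27 ± 0.08 (SE) at 0.5 to 2 h, and of 8 such probe sets above the filter 5 were higher and 3 lower in aldosterone hearts.

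Other members of the early window were Rps19 (-0.29 ± 0.10, SE), Rpl41, which encodes the smallest ribosomal protein (0.22 ± 0.09), Rpl27a (0.62 ± 0.28) and Rps4x (0.18 ± 0.08), with adjusted p-values from 0.430 to 0.490. The next brightest Rpl41 probe set differed by 0.09 ± 0.11. With the Gapdh ratio as a covariate the Rpl27a difference was -0.03, a change of sign, and those of Rps19, Rpl41 and Rps4x were -0.19, 0.33 and 0.07. The leading genes at 3 to 5 h were Rpl39, a large-subunit protein of the exit tunnel (0.33 ± 0.15, dim probe set), Rpl22 (0.19 ± 0.11), Rpl19 (-0.12 ± 0.08), Rpl6 (-0.11 ± 0.08) and Rps15 (0.14 ± 0.11), each at an adjusted p of 1. The change between the windows after Rps6 was led by Rpl41 (-0.31 ± 0.13), Rps10 (0.35 ± 0.17), Rpl39 (0.45 ± 0.22) and Rpl27a (-0.75 ± 0.39), with adjusted p-values from 0.738 to 0.755. With the Gapdh ratio as a covariate these 4 changes were -0.43, 0.08, 0.20 and 0.00. The probe sets of Rpl39 also disagreed. Its bright probe set, which carries several symbols and averaged 16.13, differed by 0.00 ± 0.08 at 3 to 5 h and by 0.18 ± 0.08 at 0.5 to 2 h, against -0.12 ± 0.15 for the dim one in the early window, and its change between the windows was -0.18 ± 0.11.

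The next question was whether the genes changed with time in both arms. By a moderated F test over the 7 times, 1 of 43 genes was called (1.91% of all probe sets) and 5 had an unadjusted p under 0.05, against 18.8% of all probe sets. On the deposited scaling 16 of 43 had one (19.8% of all), with 2 called, and 16 of 73 had one when probe sets with several symbols were taken in. The called gene was Rps26, a small-subunit protein at the exit of the message channel, at an adjusted p of 0.0331. At 1, 4 and 12 h its log2 signal was 15.49, 15.54 and 15.45 in aldosterone hearts and 15.32, 15.38 and 15.45 in control hearts. At 0.5 and 3 h it was 14.87 and 14.98 in aldosterone hearts and 14.96 and 14.97 in control hearts. At 2 and 5 h it was 15.29 and 15.11 in aldosterone hearts and 15.30 and 15.07 in control hearts. These 3 sets of times are the 3 scan days. The 3 ranges did not overlap (14.87 to 14.98 on day 1, 15.32 to 15.54 on day 2, 15.07 to 15.30 on day 3, the uninjected array included). Rps26 was picked by the time test on the same arrays and each time lies within 1 day, so this parting is descriptive. The share of all probe sets that part in this way is not given here. With scan day as a block the adjusted p of Rps26 was 0.876 and 0 of 43 genes were called, and with the Gapdh ratio as a covariate it was 0.270. Time and scan day can be told apart only within days, and day 1 cannot be told apart from chip lot 1. Without the 0.5, 3, 4, 5 or 12 h pair in turn its adjusted p lay between 0.0557 and 0.139, in fits with fewer arrays.

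Rpl27a, Rps9, Rps14 and Rps29 followed Rps26, with adjusted p-values of 0.0654, 0.123, 0.131 and 0.170. Rpl27a, a large-subunit protein, ran from 9.04 (control, 2 h) through a median of 10.55 to 11.69 (aldosterone, 12 h), and was highest at 12 and 4 h in both arms. On the 6 arrays with a high Gapdh ratio it averaged 1.14 more on the log2 scale than on the other 9. The bright probe set for Rpl27a, which carries several symbols, ranged only over 0.59 on that scale. Rps14, the small-subunit gene lost in the human deletion syndrome of the long arm of chromosome 5, ran from 14.65 (aldosterone, 2 h) through a median of 15.18 to 15.97 (uninjected). It lay between 14.65 and 15.10 on the arrays with a high ratio and between 14.81 and 15.97 on the others, against the direction of most members. Its second probe set behaved alike, at 14.51 to 14.88 and 14.80 to 16.00. Rps9, which lines the entry of the message channel, averaged highest at 5 h (15.45 for aldosterone, 15.40 for control) and lowest at 12 h (14.92 for aldosterone, 14.74 for control).

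**Figure D5:**
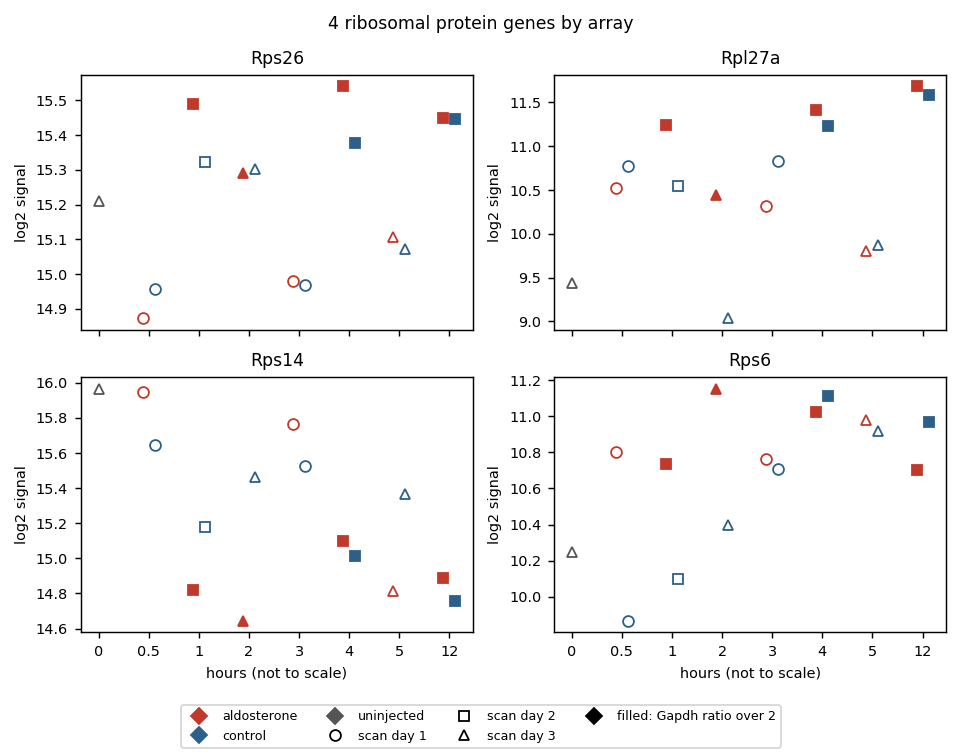
Log2 signal of Rps26, Rpl27a, Rps14 and Rps6 on each array (vertical) by hours (horizontal, not to scale), with aldosterone in red left of control in blue, marker shape for scan day and filled markers for a Gapdh ratio over 2. Rps26 forms 3 levels by shape, filled points of Rps14 lie at or below 15.10, and aldosterone lies above control in Rps6 by 0.64 or more at 0.5, 1 and 2 h.

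For 12 h against the 6 earlier times, 0 of 43 genes were called by limma (0.0622% of all probe sets) and 3 had an unadjusted p under 0.05 (9.33% of all). These were Rps15, a small-subunit protein near the decoding site (-0.36 ± 0.12, SE), Rps9 (-0.38 ± 0.14) and Rpl27a (1.13 ± 0.44), with adjusted p-values of 0.362, 0.446 and 0.471. Rps15 was 15.54 in the aldosterone heart and 15.26 in the control heart at 12 h, and averaged 15.62 to 15.93 over both arms at the earlier times. The second probe set of Rps15 differed by -0.06 and that of Rps9 by 0.00, so the probe sets of both genes disagreed. For the trend from 0.5 to 5 h, 0 genes were called (0.151% of all) and 3 had an unadjusted p under 0.05 (9.13% of all). Rps6 had a slope of 0.15 ± 0.05 per hour on the log2 scale (SE), Rps25, which some viral messages need for initiation, 0.12 ± 0.05, and Rps27 -0.18 ± 0.08, with adjusted p-values of 0.345, 0.481 and 0.526. All 3 are dim probe sets, and the bright probe sets of Rps25 and Rps27 with several symbols had slopes of -0.14 and -0.02.

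The uninjected heart was 1 array, so its values have no test. Of the 43 genes, 6 lay above the range of the 7 control arrays and 6 below it (14% each), against 17.8% and 20.4% of all probe sets. The members above it were Rps27, Rps14, Rpl39, Rps25, Rps10 and Rpl7, led by Rps27, at 12.23 in the uninjected heart and 9.95 to 11.42 in control hearts. The members below it were Rpl41, Rpl37, Rpl3l, Rpl6, Rpl10a and Rpl7a, led by Rpl41, at 15.90 in the uninjected heart and 16.38 to 16.93 in control hearts. The atrial markers were at their highest on this array (15.82) and the neutrophil markers at their lowest (8.92), and their part in these values was not tested.

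Related genes gave few calls. By limma none of 73 mitochondrial ribosomal protein genes was called in any of the 7 comparisons, with 0 at an unadjusted p under 0.05 for aldosterone over 7 times and 9 for time (12.3%, against 18.8% of all probe sets). Mrpl4 and Mrpl13 led the aldosterone comparison, at -0.21 ± 0.11 and -0.20 ± 0.11 (SE). Of 15 translation factors whose messages also begin with a pyrimidine tract, 1 was called, for time, namely Pabpc1, the poly(A)-binding protein (adjusted p = 0.0481), which ran from 14.57 (control, 3 h) to 15.55 (control, 1 h). The control array at 1 h is 1 of the 2 with lung transcripts, whose part in the value was not tested, and with scan day as a block the adjusted p of Pabpc1 was 0.286. Of 21 regulators of mTOR and Myc, 2 were called, both for time, where 1.91% of all probe sets were called. An unadjusted p under 0.05 was found for 7 of the 21 for time (33.3%, against 18.8% of all). For the trend it was found for 5 (23.8%, against 9.13% of all). With scan day as a block 111 probe sets were called for time in place of 431. Ddit4, an inhibitor of mTOR signalling (adjusted p = 0.00616, and 0.00493 with the block), ran from 12.31 (control, 5 h) to 14.67 (control, 1 h). Myc, which drives ribosomal genes (adjusted p = 0.038, and 0.0581 with the block), ran from 7.75 (uninjected) to 10.98 (aldosterone, 2 h). None of 19 initiation factors was called, with 0 at an unadjusted p under 0.05 for aldosterone over 7 times and 5 for time (26.3%, against 18.8% of all). For 12 h against the earlier times 5 of the 19 had one (26.3%, against 9.33% of all), and 4 with scan day as a block (6.69% of all). None of 35 ribosome biogenesis genes was called, though 11 had an unadjusted p under 0.05 for the trend from 0.5 to 5 h (31.4%, against 9.13% of all probe sets, of which 0.151% were called), with a median slope of 0.06 per hour on the log2 scale. With scan day as a block 6 of the 35 had one, against 8.77% of all. Rrp12, which helps export the subunits, led them at 0.45 ± 0.10 per hour (SE; adjusted p = 0.126), followed by Rrs1 at 0.14 ± 0.04 and Gar1, a part of the pseudouridylation complex, at 0.11 ± 0.03. The median slope was 0.01 for the ribosomal protein genes and 0.01 for all probe sets, and -0.01 for the ribosomal protein genes without the 0.5 h pair. None of the 4 ribosomal proteins under other symbols (Fau, Rps3a1, Rpl22l1 and Rpl7l1) was called in any comparison, and the largest aldosterone difference was that of Rpl7l1 (0.26 ± 0.09, SE; adjusted p = 0.973).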

How the data were processed

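Total RNA of whole mouse hearts was labelled with biotin and hybridised to 15 Affymetrix arrays. The deposited values are intensities on a linear scale, 1 for each probe set. The submitters' processing notes name GCOS 1.2. Each deposited array had a 2% trimmed mean of 1500 (1500.0072 to 1500.0097), and array medians lay between 413.8 and 741.4. Precision is limited by the number of arrays. The platform annotation gave 1 symbol to 34958 of 45101 probe sets, several to 932 and none to 9211.

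Intensities plus 167.8 (their 25th percentile) were put on the log2 scale and quantile normalized, which understates folds of dim probe sets. Outside the 64 control probe sets, 22520 had a mean of at least 517.2, the median, and were tested with limma 3.58.1 in R 4.3.3, with a variance trend and Benjamini-Hochberg adjustment over all of them. Aldosterone was fitted with time as a block, since both arms of a time shared their scan day; the time, 12 h and trend fits had arm as a covariate. Their arrays of a time share a scan day, so p-values may be too small. The fits were tested on simulated data with seeded changes.

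Members and lists were chosen with earlier results of these data known. Named genes were all called members, those with the 5 smallest p in each comparison, the 4 widest and narrowest ranges, the 4 highest and lowest correlations, and the paralogs and stalk proteins. Several-symbol probe sets shown beside them were looked at after the members' values were seen. Alternatives covered scaling, pseudocount, filters, probe-set type, variance trend, array weights, Gapdh ratio, scan day and left-out pairs. Figures used matplotlib 3.10.9.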

Additional observations from a re-analysis of the deposited data

Results flagged for a closer look

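Of 86 sets of 7 arrays (43 genes in each arm), 2 held an array that stood apart from the other 6 by Dixon's criterion, where chance gives about 1 in 20. The Rps15 signal on the aldosterone array at 3 h was 16.1028 on the log2 scale, with the next at 15.7777. The Rpl37 signal on the control array at 4 h was 14.0936, with the next at 13.6643. Both genes encode ribosomal proteins read from 1 probe set each here, and neither was called in any comparison.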

How the results depend on the processing

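No member was called for aldosterone under any of the 45 alternatives to its 4 comparisons, nor for 12 h or the trend under 16 each. No probe set at all was called for aldosterone under any of the 45. These counts of 0 therefore cannot show how stable the result for the members is. Of all probe sets, 0.00444% to 0.147% were called for 12 h and 0.00444% to 0.462% for the trend. The 45 include the fit with no replicate block, in which the pairs at a time were ignored (0 called), and leaving out each pair (0 to 0). The count for time, 1 in the report, was 2 on the deposited scaling and with array weights (Rpl27a and Rps26 in both), 2 with several-symbol probe sets (Rps25 and Rps26, added after seeing the data), and 0 without the filter, without the variance trend, with the Gapdh ratio or with a block for scan day. The count was 0 to 3 when 1 pair was left out: 0 without the 0.5, 3, 4, 5 or 12 h pair and 3 without the 2 h pair (Rpl27a, Rps14 and Rps26). It was 4 without the 1 and 2 h pairs (also added later), with Rps9. Of all probe sets, 1.91% were called in the report, 4.08% without the 2 h pair and 6.59% without the 1 and 2 h pairs. The share was 0.417% to 1.31% without the 0.5, 3, 4, 5 or 12 h pair. It was 0.151% without the variance trend, 0.546% without the filter, 0.986% with the Gapdh ratio and 0.493% with scan day as a block. On the deposited scaling it was 1.81% and with array weights 2.41%. The cause of these moves was not tested. The adjusted p of Rps26 for time ran from 0.0115 to 0.876 over 18 alternatives.

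On the deposited scaling the median of all probe sets ran from 9.18 to 9.83 between arrays and the mean of the members from 14.58 to 15.04. The uninjected array had both the highest median and the lowest member mean. After quantile normalization the member mean ran only from 14.78 to 14.94, so its steadiness rests in part on that step. A change common to all probe sets cannot be seen after it. Probe sets dim or shared with pseudogenes limit what can be said of Rpl14, Rps16, Rpl12, Rps25, Rpl27a, Rps6, Rps27 and Rpl39.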
